A study of Mus musculus with 7 samples.

Results

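The genes described here are the clustered protocadherins, measured in 7 mouse tumors. Rows of the count table were taken as members when their symbol was Pcdha, Pcdhb, Pcdhga, Pcdhgb, Pcdhgc or Pcdhac followed by a number. This gave 25 of the 34592 rows, of which 2 belong to the alpha cluster (Pcdha3 and Pcdha4), 22 to the beta cluster (Pcdhb1 to Pcdhb22) and 1 to the gamma cluster (Pcdhga9).

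The clustered protocadherins are cell-surface adhesion proteins of the cadherin superfamily that are best known from neurons. In mammals they are encoded in 3 clusters, alpha, beta and gamma, that follow each other on 1 chromosome. In the alpha and gamma clusters, each variable first exon has a promoter of its own and is spliced to a set of constant exons, so that every isoform of a cluster has the same cytoplasmic end. Each beta gene is read from its own promoter, largely as a single exon, and has no constant part. Single neurons use small sets of these promoters, chosen with the help of CTCF, cohesin and DNA methylation, and the proteins on a cell bind identical isoforms on another, which serves self-recognition of dendrites and axons. Alpha transcripts are mostly neuronal, whereas gamma transcripts are also found in glia and other brain cells.

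The names of the alpha and gamma rows understate what they hold. Under its Ensembl identifier, the row named Pcdha4 (ENSMUSG00000007440, chr18:37089939-37347311, plus strand, NCBIM37) is a merged model with 10 transcripts and 9 different first exons, which the annotation used here calls Pcdha11. In the same way, the row named Pcdhga9 (ENSMUSG00000023036, chr18:37833989-38001527, plus strand) has 10 transcripts and 10 different first exons, and is called Pcdhgc5 in the annotation. Each of these rows therefore pools many isoforms of a cluster, and isoforms can be told apart only among the beta genes. The C-type genes Pcdhac1, Pcdhac2, Pcdhgc3, Pcdhgc4 and Pcdhgc5, whose promoters differ in their regulation from those of the other isoforms, had no row of their own. The beta genes lie between the other clusters, from chr18:37424652 to chr18:37681073, with exon lengths between 2350 and 7131 bases. Of these, 20 consist of 1 merged exon, and Pcdhb20 is annotated as a pseudogene.

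The samples were 7 mouse Group 3 medulloblastomas (G3 MBs), a Myc-driven tumor of the cerebellum. The tumors grew from tumorsphere line # 19568, which descends from cerebellar granule neuron progenitors transduced with a retrovirus for Myc and GFP. The paper's methods give the genotype of such progenitors as Trp53-/-; Cdkn2c-/-, so both groups share the loss of these genes and the enforced Myc. In 4 tumors (WDR11OE), the tumorspheres had been infected with a lentivirus that drives human WDR11 and copGFP from an EF1 promoter, and 3 tumors were controls, listed in the labels with no treatment and described in the paper as carrying the empty vector. The infected cells were not sorted and were implanted in the cortex of immunodeficient CD1 nu/nu hosts, whose own brain, vessel and immune cells can be part of a tumor chunk and are counted on the same mouse genes. The labels give no age for the hosts. All tumors descend from 1 line, so the tests below measure the spread between tumors of that line. Sample numbers of the control and WDR11OE libraries form separate series in the labels. A library batch and the condition can therefore not be told apart.

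Total counts lay between 33417175 and 41397427 in the controls and between 32116095 and 87141305 in the WDR11OE tumors, so a count of 3 corresponds to between 0.0329 and 0.0924 CPM (reads scaled to library size) in a tumor. The row of the human transgene, hWDR11, held 73, 92 and 102 reads in the controls and 185, 169, 99 and 57 in the WDR11OE tumors. In CPM, its groups overlapped, with a log2 fold change of 0.05 (SE 0.58, adjusted p = 0.961). This row of the count table did not separate the groups. WDR11OE is therefore used as the label gives it, and every direction below is that of the tumors labelled WDR11OE against the controls. Mouse Wdr11 lay between 58.3 and 59.3 CPM in the controls and between 61.0 and 68.9 CPM in the WDR11OE tumors, with a log2 fold change of 0.16 (adjusted p = 0.0910). Of the markers of the granule neuron lineage, Atoh1 was at 0 in all tumors. Neurod1 averaged 0.604 CPM in the controls and 0.785 CPM in the WDR11OE tumors. Higher means were found for Pax6 (20.9 and 21.4 CPM), Zic1 (10.1 and 7.07 CPM) and Zic2 (3.35 and 5.76 CPM). Myc averaged 914 ± 169 CPM (SD, n = 3) in the controls and 347 ± 75.5 CPM (SD, n = 4) in the WDR11OE tumors (log2 fold change -1.40, adjusted p = 0.00227). Of the other tumor markers, Top2a was higher (log2 fold change 0.70, adjusted p = 0.00593), although 0.40 with the trend of GC content removed (adjusted p = 0.271). Mki67 had a log2 fold change of -0.30 (adjusted p = 0.0949). In bulk tumors, fewer cells of a type and less RNA per cell cannot be told apart.

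A fold change was called where the adjusted p of the edgeR quasi-likelihood test was under 0.05, over the 17389 genes that passed the filter on low counts. By this rule 33.9% of all genes tested were called, 15.8% lower and 18.1% higher in the WDR11OE tumors. Of the 25 members, 23 were tested. Pcdha3 and Pcdhb1 did not pass the filter, with at most 69 and 7 reads in a tumor. Among the members tested, Pcdhga9 was lower, Pcdhb11 and Pcdhb17 were higher, and the other 20 did not pass. Log2 fold changes also followed the GC content of exons across all genes, with a Spearman rho of -0.34 over 17125 genes, so the value with this trend removed per tumor is given where it ends a call or moves the printed estimate of a member or listed gene by over 1.5 times, and for the members called. With the trend removed, 9.21% of all genes were lower and 4.43% higher.

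The gamma cluster was the most abundant of the 3 and was lower in the WDR11OE tumors. The Pcdhga9 row stood at 341.9, 300.9 and 329.6 CPM in the controls and at 134.0, 144.7, 175.7 and 170.3 CPM in the WDR11OE tumors. Every WDR11OE tumor was below every control. The means were 324 ± 21.04 CPM (SD, n = 3) and 156 ± 20.03 CPM (SD, n = 4), which is 2.08-fold higher in the controls. The log2 fold change was -1.05 (SE 0.11, 95% interval -1.32 to -0.79, adjusted p = 0.00112), and with the GC trend removed it was -0.99 (adjusted p = 0.00343). The row held between 5660 and 15552 reads in a tumor. A stricter call in the same fit also asked for the study's 2-fold change and for an average log2 CPM above 0. Pcdhga9 still passed, as did 3.45% of all genes in the lower direction. Since all gamma isoforms of the model are counted together, which first exons carried the difference was not analysed here.

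**Figure D1:**
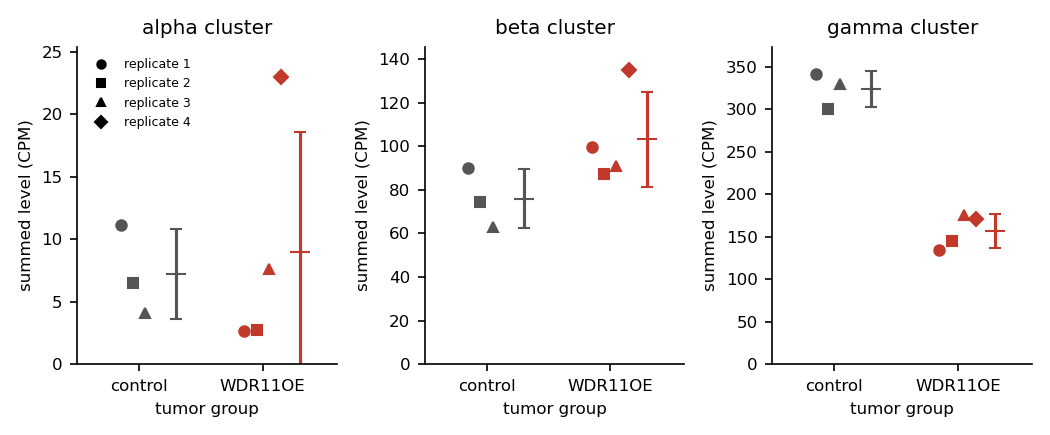
Summed level of the alpha (2 rows), beta (22 rows) and gamma (1 row) clusters in CPM (y axis from 0) in the 3 control and 4 WDR11OE tumors (points, with a symbol per replicate), with the mean and SD beside them (the lower SD bar of the alpha cluster in WDR11OE tumors reaches past 0 and is cut there). Only in the gamma panel do the groups not overlap, with controls between 300.9 and 341.9 CPM and WDR11OE tumors between 134.0 and 175.7 CPM.

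Markers of other cell types were compared between the same groups, for which 33.9% of all genes tested were called. The summed level of 11 markers of the oligodendrocyte lineage lay between 836 and 1086 CPM in the controls and between 613 and 682 CPM in the WDR11OE tumors, where Pdgfra and Cspg4, which mark oligodendrocyte progenitors, were the 2 markers called, both lower. Pdgfra passed also with the GC trend removed (-0.62, then -0.70 with adjusted p = 0.0447), and Cspg4 did not (-0.79, then -0.50 with adjusted p = 0.162). Cspg4 alone averaged 516 CPM in the controls and 297 CPM in the WDR11OE tumors, a large part of this sum. The sum was not taken without Pdgfra and Cspg4. The other markers of the lineage each overlapped between the groups. Among them, Olig1, Olig2 and Sox10 had log2 fold changes of -0.39, 0.05 and -0.35 (0.02, 0.37 and 0.05 with the trend removed). The 6 endothelium markers lay between 121 and 161 CPM in the controls and between 80.8 and 112 CPM in the WDR11OE tumors, with Cdh5 the only one called, lower. Without Cdh5, the other 5 overlapped between the groups, at 88.2 to 122 CPM in the controls and 66.4 to 90.5 CPM in the WDR11OE tumors, and Pecam1 and Tek had log2 fold changes of 0.12 and 0.02 (-0.12 for Tek with the GC trend removed). All 7 skeletal muscle markers tested were higher, with a summed level between 1.47 and 2.06 CPM in the controls and between 36.4 and 112 CPM in the WDR11OE tumors, and Mb at 0 in the controls. No oligodendrocyte or endothelium marker on the lists was at 0 in all tumors. Of 8 astrocyte markers, S100b alone passed the test, and was higher, and none of 8 markers of microglia and macrophages passed. Their part in the gamma difference was not tested.

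The beta cluster as a whole did not separate the groups. Its 22 genes summed to 90.2, 74.6 and 63.2 CPM in the controls and to 99.8, 87.5, 91.0 and 135 CPM in the WDR11OE tumors. WDR11OE replicate 4 was the highest, and WDR11OE replicate 2 lay below control replicate 1. The means were 76.0 ± 13.6 CPM (SD, n = 3) and 103 ± 21.8 CPM (SD, n = 4). Of the 21 beta genes tested, 18 had a positive and 3 (Pcdhb2, Pcdhb3 and Pcdhb5) a negative log2 fold change, and the median was 0.47, against 0.08 over all genes tested. With the GC trend removed, the median was 0.27, against 0.03 over all genes, and 15 were positive. Only 2 of 21 were called higher and 0 lower, which is no more than the 18.1% and 15.8% of all genes. At an unadjusted p under 0.05, 7 were higher and 0 lower. The share of all genes at this limit was not counted, so these counts are not read as a result. The groups did not overlap for 6 higher genes and 1 lower gene, against 23.5% and 19.1% of all genes, or 42.7% in either direction.

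Pcdhb11 (chr18:37581072-37584686) changed the most. It was at 2.64, 3.43 and 1.99 CPM in the controls and at 8.60, 6.11, 6.25 and 8.31 CPM in the WDR11OE tumors. All 4 WDR11OE tumors lay above all 3 controls. The means were 2.69 ± 0.72 CPM (SD, n = 3) and 7.32 ± 1.32 CPM (SD, n = 4), a 2.72-fold difference. The log2 fold change was 1.44 (SE 0.25, 95% interval 0.86 to 2.03, adjusted p = 0.00474), and with the GC trend removed it was 1.32 (adjusted p = 0.0146). Of the 50-base windows of its exons, 11.7% occur elsewhere on the chromosome, where the median of the beta genes is 3.91%. How reads that fit several places were counted is not given in the sources used here, so its level is uncertain to that extent. Pcdhb12, the next gene along the chromosome, has the highest such share among the beta genes, 11.99%. It was at 1.92, 0.763 and 1.07 CPM in the controls and at 2.70, 1.87, 2.22 and 4.15 CPM in the WDR11OE tumors (log2 fold change 1.13, adjusted p = 0.0736). Its groups overlapped, and it did not pass the test. On the other side, Pcdhb10 had a log2 fold change of 0.70 (adjusted p = 0.234).

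Pcdhb17 (chr18:37644675-37647943) was the other beta gene called. Its level was 8.73, 7.89 and 6.22 CPM in the controls and 13.5, 10.9, 10.1 and 14.7 CPM in the WDR11OE tumors. The groups did not overlap, and the means differed 1.61-fold. The log2 fold change was 0.69 (SE 0.19, 95% interval 0.24 to 1.14, adjusted p = 0.0291), but 0.58 with the GC trend removed (adjusted p = 0.0861), which ends the call. Its neighbour Pcdhb16, the beta gene with the most reads in every tumor, was at 14.3, 10.6 and 9.13 CPM in the controls and at 16.6, 15.3, 15.0 and 18.4 CPM in the WDR11OE tumors. Its log2 fold change was 0.53 (SE 0.18, adjusted p = 0.0548) and did not pass the test, although its groups did not overlap. With the GC trend removed it was 0.27 (adjusted p = 0.340). Pcdhb18, on the other side, had a log2 fold change of 0.73 (adjusted p = 0.0656), and of 0.41 with the trend removed (adjusted p = 0.249). At the gamma end of the cluster, Pcdhb21 had 0.47 (adjusted p = 0.0788), and 0.18 with the trend removed (adjusted p = 0.549). Pcdhb22 had 0.34 (adjusted p = 0.143). The groups did not overlap for Pcdhb21 and Pcdhb22, and neither passed the test.

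**Figure D2:**
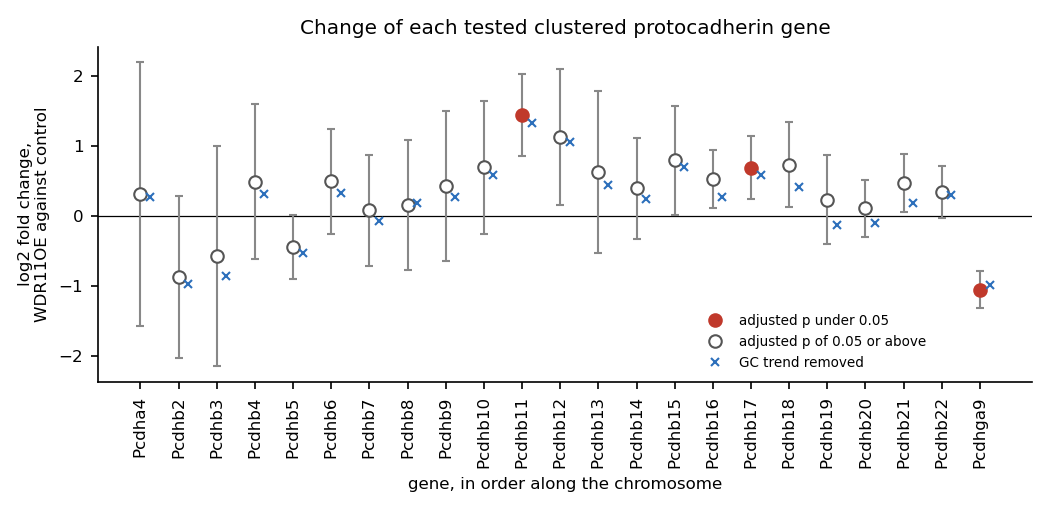
Log2 fold change of WDR11OE against control tumors for the 23 members tested (y axis), in chromosomal order (x axis), with 95% intervals, filled where the adjusted p was under 0.05, and crosses for the value with the GC trend removed. Pcdhga9 at -1.05, Pcdhb11 at 1.44 and Pcdhb17 at 0.69 are filled, while the interval of Pcdha4 runs from -1.56 to 2.19.

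The lowest log2 fold changes of the beta cluster were those of Pcdhb2, Pcdhb3 and Pcdhb5, toward its alpha end. Pcdhb4, which lies among them, had a positive value of 0.49 (adjusted p = 0.471), and of 0.31 with the GC trend removed (adjusted p = 0.644). Pcdhb2 was at 1.19, 1.43 and 1.35 CPM in the controls and at 0.616, 0.499, 0.308 and 1.42 CPM in the WDR11OE tumors. Replicate 4 alone of the WDR11OE tumors lay among the controls, and the log2 fold change was -0.87 (SE 0.49, adjusted p = 0.219). Without this tumor it was -1.47 (adjusted p = 0.0143). Where any other tumor was left out, the adjusted p lay between 0.275 and 0.369. Pcdhb3 also had its highest value in replicate 4, with 1.92, 2.15 and 1.04 CPM in the controls and 0.639, 0.349, 0.894 and 2.65 CPM in the WDR11OE tumors. Its log2 fold change of -0.58 (adjusted p = 0.556) became -1.47 (adjusted p = 0.0423) without replicate 4. Leaving out the highest WDR11OE tumor lowers that group by construction, so the fits without replicate 4 are no support for a difference. Pcdhb5 was the only beta gene with every WDR11OE tumor below every control. It was at 6.31, 4.86 and 5.21 CPM in the controls and at 4.81, 3.87, 3.204 and 4.19 CPM in the WDR11OE tumors, which gave a log2 fold change of -0.44 (SE 0.20, adjusted p = 0.125) and did not pass the test.

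Levels of the beta genes are compared per kilobase of exon (CPM per kb, means over the 7 tumors). They ran from 0.02 CPM per kb for Pcdhb1, and 0.335 CPM per kb for Pcdhb4, to 3.14 CPM per kb for Pcdhb17. Below Pcdhb17 came Pcdhb16 at 2.70, Pcdhb22 at 1.91, Pcdhb21 at 1.67 and Pcdhb11 at 1.48 CPM per kb. Most neighbours in this order changed places between tumors. The steps that held in all 7 tumors were those from Pcdhb16 down to Pcdhb22, from Pcdhb9 to Pcdhb13 and from Pcdhb4 to Pcdhb1. Genes toward the gamma end stood higher, with a median of 1.32 CPM per kb over Pcdhb14 to Pcdhb22 against 0.596 CPM per kb over Pcdhb2 to Pcdhb13. The Spearman rho of chromosomal order with this level was 0.74 over the 22 genes, which share their libraries. Between 66.7% and 75.0% of all beta reads fell on Pcdhb14 to Pcdhb22, and Pcdhb16 alone took between 13.7% and 17.5%. Over the 21 genes tested, the Spearman rho with the log2 fold change was 0.32 for chromosomal order and 0.17 for level.

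**Figure D3:**
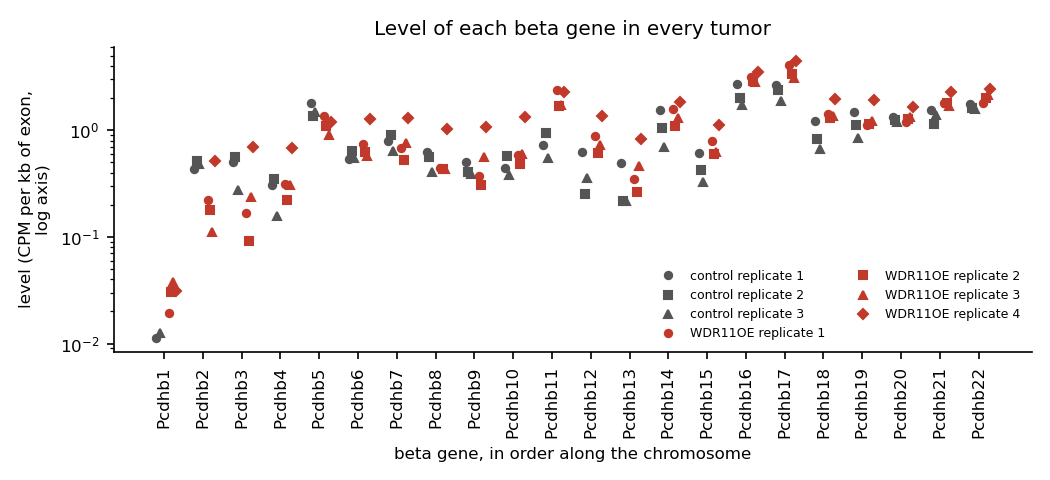
Level of the 22 beta genes in CPM per kb of exon (y axis, log scale) in chromosomal order (x axis), with 1 symbol for each of 3 control (grey) and 4 WDR11OE (red) tumors (control replicate 2, with 0 reads on Pcdhb1, is not drawn there). Pcdhb16 and Pcdhb17 are the highest and Pcdhb1 the lowest, and the red symbols lie above the grey ones for Pcdhb11.

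The mix of beta genes can be read without any scaling between libraries, as the share of each gene in the beta reads of a tumor. The share of Pcdhb11 was 3.56% ± 0.91 (SD, n = 3) in the controls and 7.16% ± 1.04 (SD, n = 4) in the WDR11OE tumors. The share of Pcdhb5 went the other way, from 7.26% ± 0.89 in the controls to 3.97% ± 0.79 in the WDR11OE tumors. Without overlap between the groups, the share was also higher for Pcdhb12, Pcdhb15, Pcdhb17 and Pcdhb18 and lower for Pcdhb2 and Pcdhb20, while 14 genes overlapped. In level, 42.7% of all genes tested did not overlap, so these counts are not read as a result. The shares are parts of a whole, so a higher share of some genes lowers the others by arithmetic. The level of Pcdhb20 had a log2 fold change of 0.11 (adjusted p = 0.678), and of -0.10 with the GC trend removed (adjusted p = 0.735). Across the 22 genes, the levels of 2 control tumors correlated with a Spearman rho between 0.897 and 0.956 (3 pairs), and those of 2 WDR11OE tumors with a rho between 0.947 and 0.977 (6 pairs). Between a control and a WDR11OE tumor, rho lay between 0.804 and 0.895 (12 pairs), below every pair within a group. Genes are not independent replicates, and the pairs share tumors, so these values are descriptive.

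The alpha cluster was the least abundant and the most variable. Pcdha4 stood at 10.9, 6.29 and 3.95 CPM in the controls and at 2.61, 2.68, 7.43 and 22.3 CPM in the WDR11OE tumors. The WDR11OE group held both the lowest and the highest tumors. The log2 fold change was 0.32 (SE 0.80, 95% interval -1.56 to 2.19, adjusted p = 0.798), and it turned to -0.74 (adjusted p = 0.320) without WDR11OE replicate 4. This interval includes a 2-fold change in either direction, so that a difference of this size was not detectable. Pcdha3, which has a row of its own next to the merged model, had 9, 7 and 4 reads in the controls and 2, 6, 6 and 69 reads in the WDR11OE tumors. The sum of both alpha rows varied 8.68-fold between the lowest and the highest tumor, the beta sum 2.14-fold and the gamma sum 2.55-fold. Within the controls the gamma sum varied 1.14-fold, and within the WDR11OE tumors 1.31-fold.

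Neuron markers varied with the alpha cluster. The 14 markers measured, which include Snap25, Syt1 and Slc17a7 of the synapse, summed to 528, 176 and 86.1 CPM in the controls and to 18.9, 41.5, 256 and 828 CPM in the WDR11OE tumors, a 43.9-fold range. This put the tumors in the same order as the alpha sum. None of the 14 passed the test between the groups, and none was at 0 in all tumors. WDR11OE replicate 4 was the highest tumor for 10 of them, and WDR11OE replicate 1 the lowest for 12. The same replicate 4 was the highest tumor for 18 of the 21 beta genes tested (85.7%), as it was for 25.02% of all genes, and for 8 of 12 protocadherins outside the clusters. The part of neurons in the alpha and beta values was not tested. Without replicate 4, the log2 fold change was -1.10 for Pcdhga9 (adjusted p = 0.00193), 1.37 for Pcdhb11 (adjusted p = 0.00863) and 0.59 for Pcdhb17 (adjusted p = 0.0483).

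**Figure D4:**
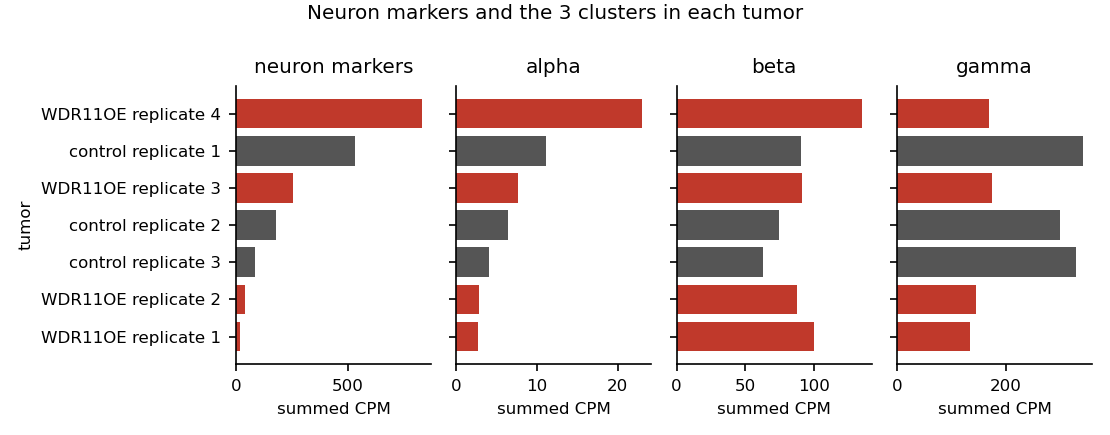
Summed CPM (x axes from 0) of 14 neuron markers and of the alpha, beta and gamma clusters in each tumor (rows, grey for control and red for WDR11OE), with the tumors sorted by the neuron markers. The alpha sum follows the order of the neuron markers, from WDR11OE replicate 1 to WDR11OE replicate 4, whereas the gamma sum is higher in all 3 controls.

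Side by side, the clusters differed in what happened between the groups. The gamma row took 79.7% ± 3.06 (SD, n = 3) of all member reads in the controls and 58.5% ± 5.41 (SD, n = 4) in the WDR11OE tumors. The beta share was 18.6% ± 2.36 in the controls and 38.4% ± 4.10 in the WDR11OE tumors, and the alpha share 1.74% ± 0.74 and 3.02% ± 2.77. Neither the gamma nor the beta share overlapped between the groups. The shares are parts of 1 whole, so a lower gamma row raises the beta share by arithmetic, and the beta sum itself overlapped. The ratio of gamma to beta reads, which no scaling between libraries can change, was 3.79, 4.04 and 5.22 in the controls and 1.34, 1.65, 1.93 and 1.26 in the WDR11OE tumors. The lowest control was above the highest WDR11OE tumor. The ratio was not corrected for the GC trend, and GC content was 53.3% for the gamma row and 47.0% as the beta median. The ratio of alpha to beta reads overlapped. These sums were not tested, since their members were chosen with earlier results of these data known. Per kilobase of summed exon, the gamma model averaged 11.2 CPM per kb in the controls and the beta genes 0.950 CPM per kb, although the gamma model joins many first exons, so that its value is not that of a single isoform.

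The cluster promoters are known to be acted on by cohesin and CTCF, by DNA methylation and its removal, and by silencing complexes. Of 29 such genes on a list, 10 were lower and 4 higher, against 15.8% and 18.1% of all genes tested. In either direction 48.3% were called, against 33.9% of all genes. Their median log2 fold change was -0.11, against 0.08 over all genes tested. With the GC trend removed, 6 were lower (20.7%) and 0 higher, against 9.21% and 4.43% of all genes. For 5 of these 6 a GC content was annotated. Wiz, a zinc finger protein that works with the histone methyltransferases Ehmt1 and Ehmt2, was at 75.5, 68.0 and 73.6 CPM in the controls and at 17.4, 20.6, 27.7 and 23.5 CPM in the WDR11OE tumors. The log2 fold change was -1.70 (SE 0.15, adjusted p = 0.000934), and -1.48 with the GC trend removed (adjusted p = 0.00260). Tet3, which oxidizes methylated cytosine, averaged 231 ± 24.4 CPM in the controls and 106 ± 18.03 CPM in the WDR11OE tumors (log2 fold change -1.12, adjusted p = 0.00155). Atf7ip, a partner of the methyltransferase Setdb1 with no annotated GC content and so not corrected here, averaged 162 ± 16.9 and 84.4 ± 15.6 CPM (log2 fold change -0.94, adjusted p = 0.00356). Tet1, Tet2 and Ehmt1 were also lower with the trend in place and with it removed.

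Other calls on the list ended with the GC trend removed. Ehmt2 had a log2 fold change of -0.72 (adjusted p = 0.00309) and of -0.40 with the trend removed (adjusted p = 0.195). Stag2, a cohesin subunit, had 0.73 (adjusted p = 0.00121) and 0.33 with the trend removed (adjusted p = 0.204). Smchd1, which silences clustered protocadherin genes, had 0.43 (adjusted p = 0.00773) and 0.14 with the trend removed (adjusted p = 0.640). Zfp143 went from 0.37 to 0.19 (adjusted p = 0.512) and Hdac2 from 0.42 to 0.07 (adjusted p = 0.850). For Dnmt1, Dnmt3a and Rest, the call ended while the estimate moved little, from -0.65 to -0.56 (adjusted p = 0.0891), from -0.40 to -0.36 (adjusted p = 0.102) and from -0.43 to -0.50 (adjusted p = 0.0989). Neither Ctcf (log2 fold change -0.22, adjusted p = 0.151) nor the cohesin subunit Rad21 (-0.11, adjusted p = 0.617, and -0.29 with the trend removed, adjusted p = 0.423) passed, nor did Setdb1 (-0.04, adjusted p = 0.648, and -0.13 with the trend removed, adjusted p = 0.573) or Dnmt3b (-0.24, adjusted p = 0.230), which methylates cluster promoters in development.

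**Figure D5:**
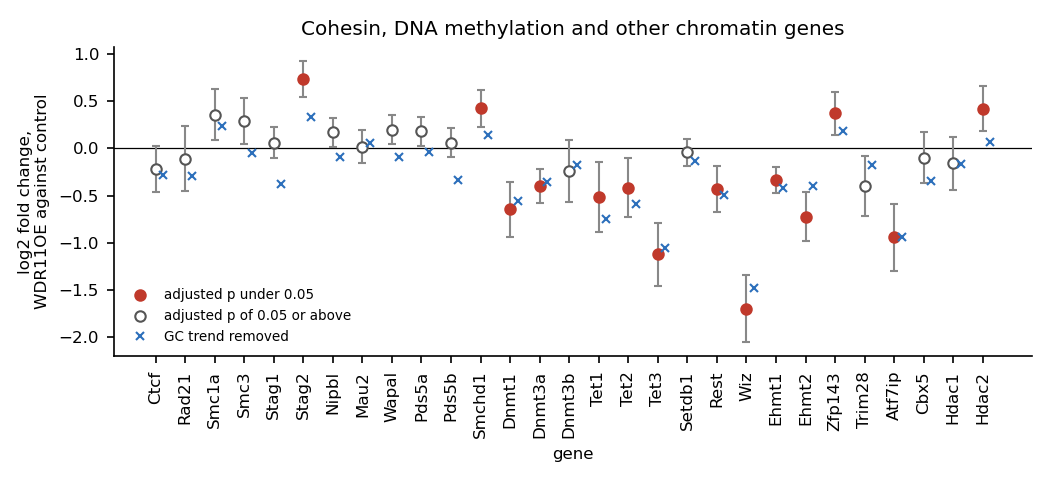
Log2 fold change of WDR11OE against control tumors (y axis) for 29 genes of cohesin, DNA methylation and silencing complexes (x axis), with 95% intervals, filled where the adjusted p was under 0.05, and crosses for the value with the GC trend removed. Wiz is the lowest at -1.70 and Stag2 the highest at 0.73, and the cross of Stag2 lies at 0.33.

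Of 21 genes whose proteins bind, carry or cut clustered protocadherins, 9 were lower and 3 higher, against 15.8% and 18.1% of all genes tested. In either direction 57.1% were called, against 33.9% of all genes. With the GC trend removed, 6 were lower (28.6%) and 0 higher, against 9.21% and 4.43% of all genes. Parts of the gamma-secretase and ADAM pathway that cleaves the proteins were lower, among them Ncstn (log2 fold change -1.01, adjusted p = 0.00145) and Adam10 (-0.50, adjusted p = 0.00810, and -0.84 with the trend removed, adjusted p = 0.0138). Of the WAVE complex and its activator, which gamma and other isoforms can recruit to actin, Wasf1 (-1.29, adjusted p = 0.00597), Abi2 (-0.40, adjusted p = 0.0104, and -0.67 with the trend removed, adjusted p = 0.0107) and Rac1 (-0.54, adjusted p = 0.00273) were lower. Cyfip1 (-0.15, adjusted p = 0.234), Cyfip2 (-0.89, adjusted p = 0.325) and Nckap1 (-0.19, adjusted p = 0.126, and -0.38 with the trend removed, adjusted p = 0.0657) did not pass. Abi1 had -0.12 (adjusted p = 0.174) and passed only with the trend removed (-0.54, adjusted p = 0.0242). Axin1, a scaffold of WNT signaling, was lower as well (-0.54, adjusted p = 0.00350), although not with the trend removed (-0.35, adjusted p = 0.173). The retromer subunit Vps35 (0.77, adjusted p = 0.000917), Pdcd10, which binds the shared cytoplasmic end (0.71, adjusted p = 0.00107), and the sorting nexin Snx1 (0.38, adjusted p = 0.0187) were higher. With the trend removed, none of these 3 passed, at 0.40 (adjusted p = 0.129), 0.17 (adjusted p = 0.460) and 0.31 (adjusted p = 0.267).

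None of the 12 protocadherins outside the clusters passed the test, with a median log2 fold change of -0.26. Pcdh15 had a log2 fold change of 0.69 (adjusted p = 0.0629), and of 0.40 with the GC trend removed (adjusted p = 0.252). Pcdh19 had -0.90 (adjusted p = 0.0733) and passed with the GC trend removed (-1.03, adjusted p = 0.0364). Of 19 other cadherins tested, 4 were lower and 0 higher, against 15.8% and 18.1% of all genes tested. The lower ones were Cdh5 of vessel walls (log2 fold change -1.02, adjusted p = 0.00238), Cdh11 of mesenchymal cells (-0.69, adjusted p = 0.0106), Cdh17 (-1.12, adjusted p = 0.0120) and Cdh24 (-0.90, adjusted p = 0.0196). With the trend removed, 3 were lower and 0 higher, against 9.21% and 4.43% of all genes, and Cdh24 did not pass (-0.52, adjusted p = 0.135). Around the clusters on chromosome 18, 3 of 27 neighbours were lower and 3 higher. In either direction 22.2% were called, which is below the 33.9% of all genes tested. With the GC trend removed, 2 were lower (7.41%) and 0 higher, against 9.21% and 4.43% of all genes. Taf7, a subunit of the general transcription factor TFIID that lies between the beta and gamma clusters, averaged 12.2 ± 2.04 CPM in the controls and 21.9 ± 1.57 CPM in the WDR11OE tumors (log2 fold change 0.84, adjusted p = 0.00392), although 0.47 with the GC trend removed (adjusted p = 0.176). Diap1, an actin-nucleating formin just beyond the gamma cluster, was at 45.7, 45.7 and 46.1 CPM in the controls and at 21.7, 22.8, 30.4 and 26.5 CPM in the WDR11OE tumors (log2 fold change -0.86, adjusted p = 0.00231, with the trend removed -0.86 and adjusted p = 0.00544). Slc35a4 was also lower in both fits (-0.82, adjusted p = 0.00131, and -0.72, adjusted p = 0.0259). Spry4, an inhibitor of receptor tyrosine kinase signaling, was lower (-0.77, adjusted p = 0.0125), and Sra1 (0.54, adjusted p = 0.00967) and Zmat2 (0.43, adjusted p = 0.0156) were higher. None of these 3 passed with the trend removed, although the estimate of Spry4 hardly moved, at -0.75 (adjusted p = 0.0556), beside 0.42 for Sra1 (adjusted p = 0.165) and 0.29 for Zmat2 (adjusted p = 0.301).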

How the data were processed

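RNA from 7 tumors was sequenced by the authors, mapped against NCBIM37 (mm9) and counted per gene with HTSeq on a GENCODE annotation, whose release is not given in the sources used here. The submitters' processing notes also name CASAVA 1.7, STAR and BWA. The deposited values are raw read counts that were not normalized. The paper describes stranded total RNA and the labels a TruSeq RNA kit, and the strand setting of the counting is not given in the sources used here, so reads of the antisense genes Gm10545 and Gm16882 (0 to 7 and 2 to 36 counts) cannot be told apart from those of Pcdha4 and Pcdhga9 where exons overlap. The counting rule for reads that fit several genes is also not given.

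In R 4.3.3, genes were kept by filterByExpr of edgeR 4.0.16, scaled by TMM and fitted by quasi-likelihood (two-sided), with condition as the only term and Benjamini-Hochberg adjustment over 17389 genes. The study names limma-voom, which was run as an alternative (limma 3.58.1), as was DESeq2 1.42.0. CPM values use TMM library sizes. Coordinates, exon length and GC content came from GENCODE M1, which matched 33606 rows (97.1%), and the GC trend was a loess fit per tumor (span 0.5) used as an offset. The fits were run on simulated data whose spread between tumors was fixed and not estimated from these data. This checked the code only and bears on no call. Depth limits the members with few reads, and the floor of 3 counts covers counting error only.

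The members and lists were chosen with earlier results of these data known. Named members are the C-type genes and, per cluster, the 4 with the highest level per length, those with the lowest and the highest log2 fold change, and up to 4 called in each direction with the smallest p. From each list, up to 5 called genes with the smallest p were to be named. Other genes named (among them Pcdhb3, Pcdhb5, Pcdhb10, Pcdhb12 and Pcdhb18) were chosen after their values were seen. Further alternatives were library size and upper quartile scaling, no filter, 1 CPM in at least 3 tumors, leaving out each tumor, summing WDR11OE replicates 1 and 2 (whose titles share a number), a 2-fold limit and an adjusted p under 0.01.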

Additional observations from a re-analysis of the deposited data

How the results depend on the processing

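No paired analysis was possible because the labels give no replicate numbers that the groups share. Pcdhga9 stayed lower with an adjusted p under 0.05 in all 15 refits (log2 fold change between -1.11 and -0.99), and Pcdhb11 stayed higher in all 15 (between 1.27 and 1.66). Pcdhb17 passed in 8 of 15, and was lost with no filter, with the GC trend removed, with WDR11OE replicates 1 and 2 summed, and without control replicate 2 or 3 or WDR11OE replicate 1 or 2. Against 2 in the reported test, the number of beta genes called higher was 5 with DESeq2, 3 with limma-voom and with upper quartile scaling, and 1 each with no filter, with the GC trend removed, with the summed replicates, at the 2-fold limit and at an adjusted p under 0.01. Leaving out 1 tumor gave between 1 and 5 higher beta genes, with 5 without control replicate 1, and between 0 and 2 lower ones, with 2 (Pcdhb2 and Pcdhb3) without WDR11OE replicate 4. Pcdhb16 passed in 4 of the 15 refits. Pcdha4 turned to -0.00498 under limma-voom (adjusted p = 0.997), and ran from -0.74 to 0.77 when 1 tumor was left out. The log2 ratios of the cluster sums moved by less than the spread between tumors under the alternatives run for them (library size and upper quartile scaling, leaving out each tumor and, for alpha and beta, the member with the most reads), although the alpha ratio was -0.73 without WDR11OE replicate 4. The causes were not tested.

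The alpha and gamma clusters were read through merged rows, and promoter use inside them was not analysed here. Pcdha3 and Pcdhb1 had too few reads to be tested at this depth. The endothelium markers without Cdh5 were summed after seeing the data.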
